A study of Mus musculus with 4 samples.

Results

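The 10 genes described here encode subunits of condensin and cohesin, the ring-shaped complexes that shape chromosomes. They were chosen by name, from 55335 rows of the deposited table, and comprise 8 condensin genes and 2 cohesin genes. Smc2 and Smc4 serve both condensins, Ncapd2, Ncapg and Ncaph belong to condensin I, Ncapd3, Ncapg2 and Ncaph2 to condensin II, and Smc1a and Smc3 to cohesin. Full-length cDNA was made with SMART-Seq2, a protocol for small cell numbers, from epithelial cells from the gastric corpus of C57BL/6 mice, which were 6 to 8 weeks old. Every mouse carried the Iqgap3-2A-tdTomato reporter, in which a red fluorescent protein is made from the locus of the scaffold gene Iqgap3. Living cells with the epithelial surface protein EpCAM were sorted by the reporter: IQ3pos cells were bright, IQ3neg cells dim or dark, and the labels give no other treatment. Libraries IQ3pos_1909A and IQ3neg_1909B were each made from a pool of 3 mice, and IQ3pos_1910A and IQ3neg_1910B from a pool of 4, which gives 2 libraries per fraction. The comparison addresses how far RNA for the mitotic condensins and for cohesin differs between cells sorted as bright and as dim or dark for the reporter.

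Structural maintenance of chromosomes (SMC) proteins are long coiled-coil ATPases that pair at a hinge and are closed into a ring by a kleisin subunit. Condensin extrudes DNA into loops and compacts chromosomes for mitosis. Condensin II resides in the nucleus through the cell cycle, whereas condensin I reaches chromosomes once the nuclear envelope has broken down. Cohesin holds sister chromatids together from replication to anaphase, and it also forms chromatin loops in cells that do not divide. The corpus epithelium renews itself from dividing cells in the isthmus of the gland, while most mature gland cells divide rarely.

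The promoters of 9 of the 10 genes (all but Smc4) are held in RefSeq (GRCm38.p6), as windows of 300 bases that run from 250 bases before the transcription start to 50 bases after it. The windows were searched on both strands for 3 short motifs of cell cycle promoters. These are the cell cycle genes homology region (CHR, TTTGAA or TTCGAA), the CCAAT box (CCAAT) and an E2F site (TTCGCGC or TTGGCGC). A match on the other strand appears in the printed strand as its reverse complement. The 6 windows below are shown because they hold different motifs in genes with both large and small differences. Smc2, Ncapg and Ncapd2, with large differences, hold a CHR and a CCAAT box, while Ncaph, with the largest difference of the 10 on CPM, holds neither. Ncaph2, with a small difference, holds a CHR, as does Ncapg2, and Smc3 holds none of the motifs. Capitals mark every match, and no match overlapped another.
Smc2: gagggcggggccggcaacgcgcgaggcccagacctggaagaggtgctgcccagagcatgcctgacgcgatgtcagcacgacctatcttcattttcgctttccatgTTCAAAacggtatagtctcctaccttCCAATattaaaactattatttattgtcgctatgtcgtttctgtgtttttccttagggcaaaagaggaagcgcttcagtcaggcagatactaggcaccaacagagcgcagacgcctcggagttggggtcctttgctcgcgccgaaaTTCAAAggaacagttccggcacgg
Ncapg: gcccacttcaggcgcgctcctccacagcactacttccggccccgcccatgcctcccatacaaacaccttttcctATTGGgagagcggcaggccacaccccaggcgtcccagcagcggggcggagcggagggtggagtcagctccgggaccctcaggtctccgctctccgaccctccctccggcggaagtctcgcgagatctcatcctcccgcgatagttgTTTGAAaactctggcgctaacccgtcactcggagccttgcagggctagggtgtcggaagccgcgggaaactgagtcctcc
Ncapd2: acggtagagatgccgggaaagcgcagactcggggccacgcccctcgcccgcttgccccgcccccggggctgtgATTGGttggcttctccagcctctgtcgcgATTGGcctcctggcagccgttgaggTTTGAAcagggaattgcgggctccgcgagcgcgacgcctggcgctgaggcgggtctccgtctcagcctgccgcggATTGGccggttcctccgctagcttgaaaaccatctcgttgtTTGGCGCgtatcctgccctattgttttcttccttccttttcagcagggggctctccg
Ncaph: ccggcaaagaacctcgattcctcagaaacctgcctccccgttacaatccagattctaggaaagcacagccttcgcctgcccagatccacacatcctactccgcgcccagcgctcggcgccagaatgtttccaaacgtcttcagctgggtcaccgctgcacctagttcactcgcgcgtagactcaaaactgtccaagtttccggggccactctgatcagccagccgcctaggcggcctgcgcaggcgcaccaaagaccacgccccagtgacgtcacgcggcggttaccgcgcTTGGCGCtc
Ncaph2: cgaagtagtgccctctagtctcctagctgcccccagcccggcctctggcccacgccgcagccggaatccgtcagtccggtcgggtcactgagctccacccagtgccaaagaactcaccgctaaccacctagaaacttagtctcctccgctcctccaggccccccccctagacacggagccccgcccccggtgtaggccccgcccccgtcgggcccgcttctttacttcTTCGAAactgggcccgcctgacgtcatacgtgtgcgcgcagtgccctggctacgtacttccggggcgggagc
Smc3: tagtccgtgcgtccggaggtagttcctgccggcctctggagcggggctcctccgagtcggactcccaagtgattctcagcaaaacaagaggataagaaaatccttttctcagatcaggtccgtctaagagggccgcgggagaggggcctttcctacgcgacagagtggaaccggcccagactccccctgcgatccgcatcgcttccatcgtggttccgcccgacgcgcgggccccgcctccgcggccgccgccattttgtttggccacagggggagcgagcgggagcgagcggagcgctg
The windows lie at chr4:52438971-52439270 on the plus strand for Smc2, chr5:45669675-45669974 on the plus strand for Ncapg, chr6:125191537-125191836 on the minus strand for Ncapd2, chr2:127133905-127134204 on the minus strand for Ncaph, chr15:89355469-89355768 on the plus strand for Ncaph2 and chr19:53600146-53600445 on the plus strand for Smc3. The 9 genes had 10 windows, 2 of them for Ncapd3. A gene was counted for a match in any of its windows, whereas the shares below are of single windows. A CHR was found in windows of 6 of the 9 genes (Smc2, Ncapd2, Ncapg, Ncapg2, Ncaph2 and a second start of Ncapd3), and in 19.2% of all 32851 promoter windows of that length. The first window of Ncapd3 held no CHR. A CCAAT box was found for 4 of the 9 (Smc2, Ncapd2, Ncapg and Smc1a) and in 37.4% of all windows. An E2F site was found for 3 of the 9 (Ncapd2, Ncaph and Ncapd3) and in 3.89% of all windows. A CHR and a CCAAT box together were held by 7.52% of all windows, and none of the 3 motifs by 48.9%. These matches are descriptions of letters in a window and were not tested for binding.

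The libraries held 90714929 (IQ3pos_1909A) and 279125309 (IQ3pos_1910A) reads in genes, against 115016307 (IQ3neg_1909B) and 418401262 (IQ3neg_1910B). Levels are CPM, counts per 1000000 reads in genes, as deposited. The 4 most abundant genes, led by colipase (Clps), took 14.3% and 8.44% of reads in the IQ3pos libraries and 53.6% and 46.6% in the IQ3neg libraries, which leaves fewer reads for other genes in IQ3neg. The median of the 13019 genes tested was 0.68 higher in IQ3pos on the log2(CPM + 1) scale, and 0.04 higher after TMM scaling, which sets libraries to a common level from the bulk of their genes. The differences below are therefore given both ways. Iqgap3, whose locus carries the reporter, had 0.220 CPM in IQ3pos_1909A and 9.32 CPM in IQ3pos_1910A, against 0.0435 CPM in IQ3neg_1909B and 0.452 CPM in IQ3neg_1910B. Iqgap3 was thus higher in IQ3pos within each number, but IQ3pos_1909A lay below IQ3neg_1910B. Its values in IQ3pos_1909A and IQ3neg_1909B rest on only 20 and 5 reads. Epithelial markers were present throughout, with 5 genes that summed to 3668 to 5176 CPM in IQ3pos and 1271 to 2893 CPM in IQ3neg. The 4 chief cell markers summed to 18734 to 49167 CPM in IQ3pos and 389329 to 406186 CPM in IQ3neg, and the 5 enteroendocrine markers to 175 to 360.2 CPM and 10178 to 16173 CPM. The 4 pit cell markers summed to 9538 to 9754 CPM in IQ3pos and 1015 to 1364 CPM in IQ3neg, and the 3 mucous neck markers to 5175 to 8646 CPM and 1181 to 2168 CPM. Most of the mucous neck sum in IQ3pos was Tff2. The fractions overlapped for Muc6 (381 and 408 CPM in IQ3pos, 263 and 556 CPM in IQ3neg). They also did for Gkn3 (558 and 2746 CPM in IQ3pos, 503 and 1016 CPM in IQ3neg). The 4 parietal markers summed to 3029 to 4062 and 449 to 522 CPM, and the 4 tuft markers to 113 to 479 and 326 to 929 CPM. Of the parietal markers, Slc26a7 overlapped, at 0.0331 and 7.91 CPM in IQ3pos and 0 and 5.36 CPM in IQ3neg. Of other tissues, the 5 immune markers summed to 49.1 to 267 CPM in IQ3pos and 71.4 to 369 CPM in IQ3neg, and the 5 stromal markers to 0.168 to 1.31 and 1.51 to 28.4 CPM. The 3 endothelial markers stayed at or below 0.485 CPM in sum and the 3 muscle markers at or below 1.25 CPM. No marker listed was at 0 in all 4 libraries. The part of these cell types in the results below was not tested, and in such bulk libraries fewer cells of a type and less RNA per cell cannot be told apart.

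Smc2, Smc4 and the condensin I genes had far higher levels in IQ3pos than in IQ3neg. On CPM and with TMM scaling, the differences of the condensin II and cohesin genes were smaller. In 7 of the 8 condensin genes, each IQ3pos library exceeded each IQ3neg library on CPM, which held for 40.9% of all tested genes. With TMM-scaled CPM it held for 6 of the 8 and for 24.7% of tested genes. It held for both cohesin genes on CPM and for neither after TMM scaling. The 8 condensin genes had a median log2 difference of 3.32, and the 2 cohesin genes one of 1.03, beside 0.68 for all tested genes. After TMM scaling these medians were 2.71, 0.28 and 0.04. The 3 genes of condensin II alone had medians of 1.22 on CPM and 0.53 with TMM scaling, nearer those of the cohesin genes. At a Benjamini-Hochberg threshold of 0.05, limma called 0 of 13019 genes (0%) in either direction, and so none of the 10. With TMM scaling it called 6 genes higher in IQ3pos (0.0461%) and 24 lower (0.184%), none of them among the 10. On whole reads recovered from the CPM, edgeR called 40 higher (0.307%) and 80 lower (0.614%), and DESeq2 710 (5.45%) and 1081 (8.3%). At an unadjusted p under 0.05, limma counted 2373 genes higher in IQ3pos (18.2%) and 648 lower (4.98%), among the higher ones 6 of 8 condensin genes and 0 of 2 cohesin genes. With TMM scaling it counted 994 higher (7.63%) and 1083 lower (8.32%), with 4 condensin genes and 0 cohesin genes among the higher ones.

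**Figure D1:**
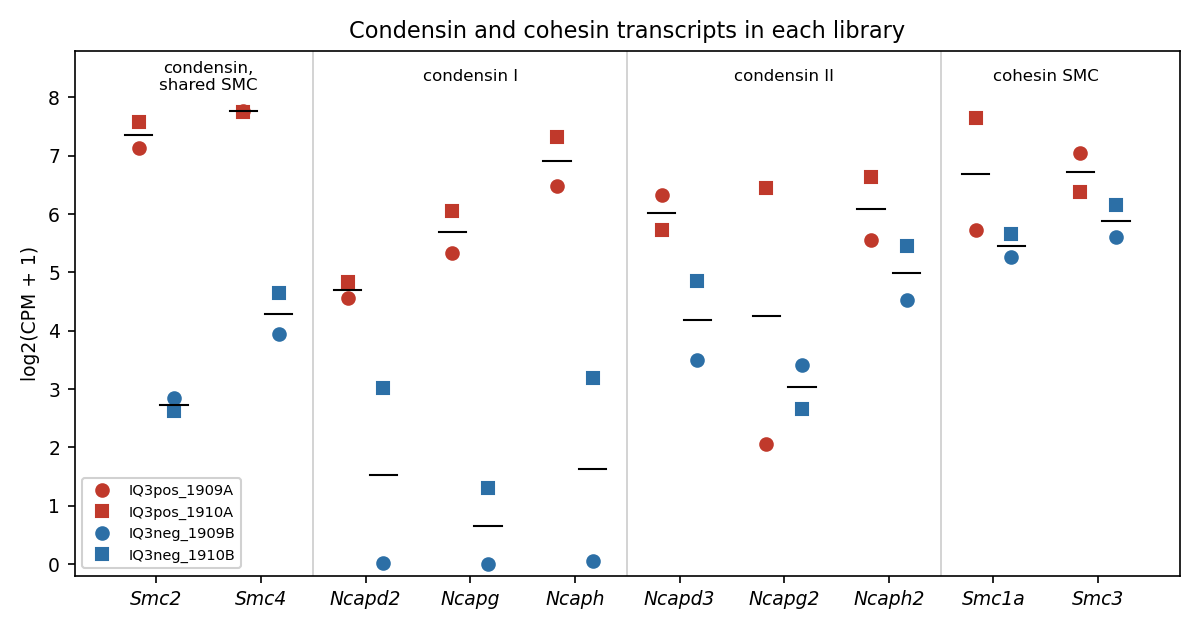
Level of each gene in each library as log2(CPM + 1), IQ3pos in red to the left of IQ3neg in blue; circles are IQ3pos_1909A and IQ3neg_1909B, squares IQ3pos_1910A and IQ3neg_1910B, and black bars the means of 2 libraries. The IQ3pos points of Smc4 coincide near 216 CPM, and the condensin I genes lie at or near 0 in IQ3neg_1909B.

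Smc2 and Smc4 form the ATPase core that both condensins share, and in both the fractions lay further apart than the libraries of either fraction. Smc2 stood at 139.8 and 191 CPM in IQ3pos_1909A and IQ3pos_1910A, against 6.19 and 5.15 CPM in IQ3neg_1909B and IQ3neg_1910B. The lowest IQ3pos library thus lay far above the highest IQ3neg library. The fold was 22.6 for IQ3pos_1909A over IQ3neg_1909B and 37.1 for IQ3pos_1910A over IQ3neg_1910B. Its log2 difference was 4.63 (SE 0.47, limma adjusted p = 0.0605), rank 24 of 13019 tested genes. Smc4 stood at 217 and 215 CPM in the IQ3pos libraries, against 14.4 and 24.0 CPM in the IQ3neg libraries. The IQ3pos libraries were nearly level with each other (216 ± 0.795 CPM) and the IQ3neg libraries were not (19.2 ± 6.79 CPM, SD, n = 2 each). Its log2 difference was 3.47 (SE 0.41, limma adjusted p = 0.0605). With TMM scaling the differences were 3.91 for Smc2 and 2.72 for Smc4, with adjusted p of 0.0551 and 0.0645 in limma. The edgeR quasi-likelihood test gave 4.17 and 2.73 with adjusted p of 0.0217 and 0.0337, past the threshold. They were the 2 of 10 that edgeR called, and DESeq2 called Smc2, Smc4, Ncapg and Ncaph with adjusted p of 1.66e-12, 8.28e-09, 0.0106 and 0.0173, but none with no filter on low values. With edgeR's own filter on low counts (filterByExpr) neither passed, at adjusted p of 0.0530 and 0.0811.

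The genes of condensin I alone had the lowest levels per kb of all 10 in IQ3neg_1909B. Ncaph encodes the kleisin of condensin I, which closes the ring. It stood at 88.6 and 159 CPM in IQ3pos_1909A and IQ3pos_1910A, against 0.0348 and 8.17 CPM in IQ3neg_1909B and IQ3neg_1910B. The value in IQ3neg_1909B rests on 4 reads (95% exact Poisson interval 0.00948 to 0.0890 CPM, counting error only). The fitted difference, 5.28 on the log2 scale (SE 1.12), ranked 5 of 13019, with a limma adjusted p of 0.0779. Ncapg encodes a HEAT-repeat subunit of condensin I, one of those that bind DNA with the kleisin. It stood at 39.1 and 65.1 CPM in the IQ3pos libraries, against 0 and 1.48 CPM in IQ3neg_1909B and IQ3neg_1910B. A count of 0 at the depth of IQ3neg_1909B allows up to 0.0261 CPM at 3 reads. The log2 difference was 5.03 (SE 0.91, limma adjusted p = 0.0666), rank 10. Ncapd2, the other HEAT-repeat subunit, was the lowest of the 3 per kb in both IQ3pos libraries. Its levels were 22.6 and 27.6 CPM in IQ3pos, against 0.0174 CPM (2 reads) in IQ3neg_1909B and 7.14 CPM in IQ3neg_1910B. Its log2 difference was 3.17 (SE 1.20, limma adjusted p = 0.196).

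The 3 genes of condensin I each had at most 4 reads in IQ3neg_1909B, so the size of their differences depends on that library. Without it the log2 differences were 3.71 for Ncaph, 4.38 for Ncapg and 1.67 for Ncapd2, and without IQ3neg_1910B they were 6.85, 5.69 and 4.67. Within 1 number, IQ3pos_1910A exceeded IQ3neg_1910B 19.4-fold for Ncaph, 44.0-fold for Ncapg and 3.87-fold for Ncapd2. In all 3 the fractions did not overlap on CPM or with TMM scaling, as in 40.9% and 24.7% of tested genes. On TMM-scaled CPM their log2 differences were 4.79, 4.59 and 2.70.

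Over all 4 libraries, on CPM and with TMM scaling in limma, the genes of condensin II alone had smaller log2 differences than those of condensin I. That order did not hold between Ncapg2 and Ncapd2 with edgeR (1.99 and 1.75, or 1.82 and 1.80 with filterByExpr). It also failed without IQ3pos_1909A (3.41 and 3.31), and by more for IQ3pos_1910A minus IQ3neg_1910B (3.79 and 1.81). Ncapd3, a HEAT-repeat subunit, stood at 79.0 and 51.8 CPM in IQ3pos_1909A and IQ3pos_1910A, against 10.3 and 27.9 CPM in IQ3neg_1909B and IQ3neg_1910B. The groups did not overlap, and the log2 difference was 1.85 (SE 0.62, limma adjusted p = 0.166), or 1.11 with TMM scaling. It was 1.17 without IQ3neg_1909B. Ncaph2, the kleisin of condensin II, stood at 46.1 and 98.3 CPM in the IQ3pos libraries, against 21.9 and 42.7 CPM in the IQ3neg libraries. The lower IQ3pos value lay just above the higher IQ3neg value, and below it after TMM scaling (36.6 against 49.9 TMM-scaled CPM). Its log2 difference was 1.11 (SE 0.58, limma adjusted p = 0.313), or 0.36 with TMM scaling.

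Ncapg2, the remaining HEAT-repeat subunit of condensin II, was the only member whose groups overlapped on CPM. It stood at 3.16 and 86.6 CPM in IQ3pos_1909A and IQ3pos_1910A, against 9.69 and 5.32 CPM in IQ3neg_1909B and IQ3neg_1910B. IQ3pos_1909A was thus 0.327-fold IQ3neg_1909B, and IQ3pos_1910A 16.3-fold IQ3neg_1910B. The 3.16 CPM rest on 287 reads (95% exact Poisson interval 2.81 to 3.55 CPM, counting error only). Its log2 difference, 1.22 (SE 1.50, adjusted p = 0.644 in limma), became −0.98 without IQ3pos_1910A and 3.41 without IQ3pos_1909A. With TMM scaling it was 0.53 (SE 1.43).

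Smc1a and Smc3 encode the ATPase pair of cohesin. Smc1a stood at 52.0 and 199.5 CPM in IQ3pos_1909A and IQ3pos_1910A, against 37.3 and 49.4 CPM in IQ3neg_1909B and IQ3neg_1910B. One high library, IQ3pos_1910A, carried most of the difference: the log2 value was 1.23 (SE 0.68, limma adjusted p = 0.342) with all libraries and 0.27 without it. Smc3 stood at 131 and 82.3 CPM in the IQ3pos libraries, against 47.7 and 69.9 CPM in the IQ3neg libraries. Here IQ3pos_1909A was the high library, so the partners did not move together within IQ3pos. The log2 difference of Smc3 was 0.84 (SE 0.42, limma adjusted p = 0.300), became 0.08 (SE 0.40) with TMM scaling and turned to −0.14 when shares were computed without the 20 most abundant genes. With TMM scaling Smc1a differed by 0.47 (SE 0.63).

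**Figure D2:**
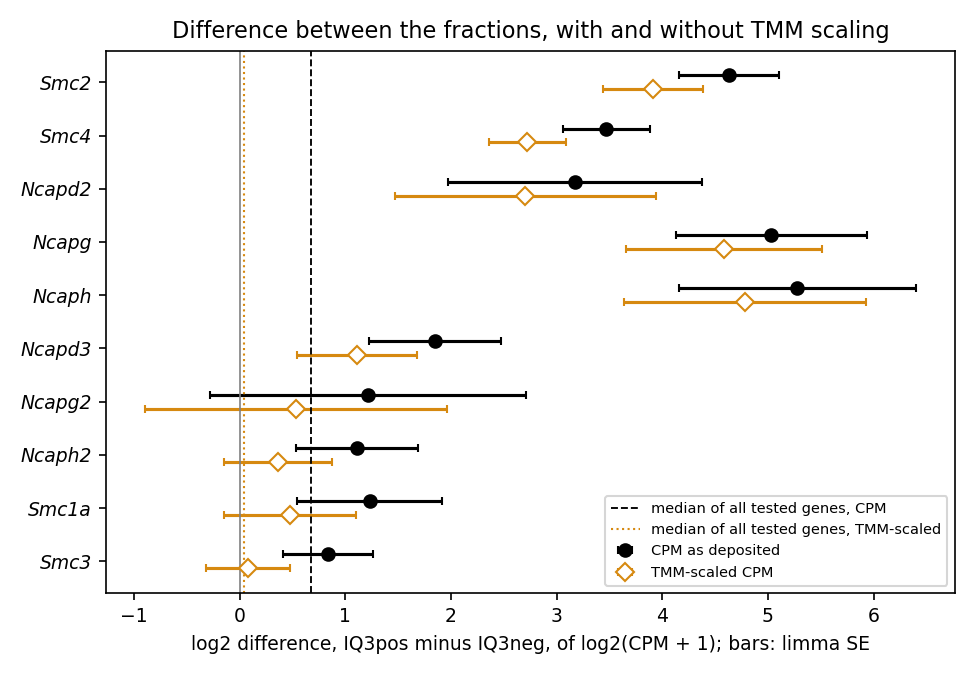
Log2 difference of each gene, IQ3pos minus IQ3neg (2 libraries each), on CPM as deposited (black) and TMM-scaled CPM (orange), with limma's SE as bars and the medians of all 13019 tested genes as vertical lines. Smc2, Smc4, Ncapg and Ncaph lie far to the right on both scales, while Ncaph2, Ncapg2, Smc1a and Smc3 lie closest to the median of all genes; Smc3 turns to −0.14 without the 20 most abundant genes.

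**Figure D3:**
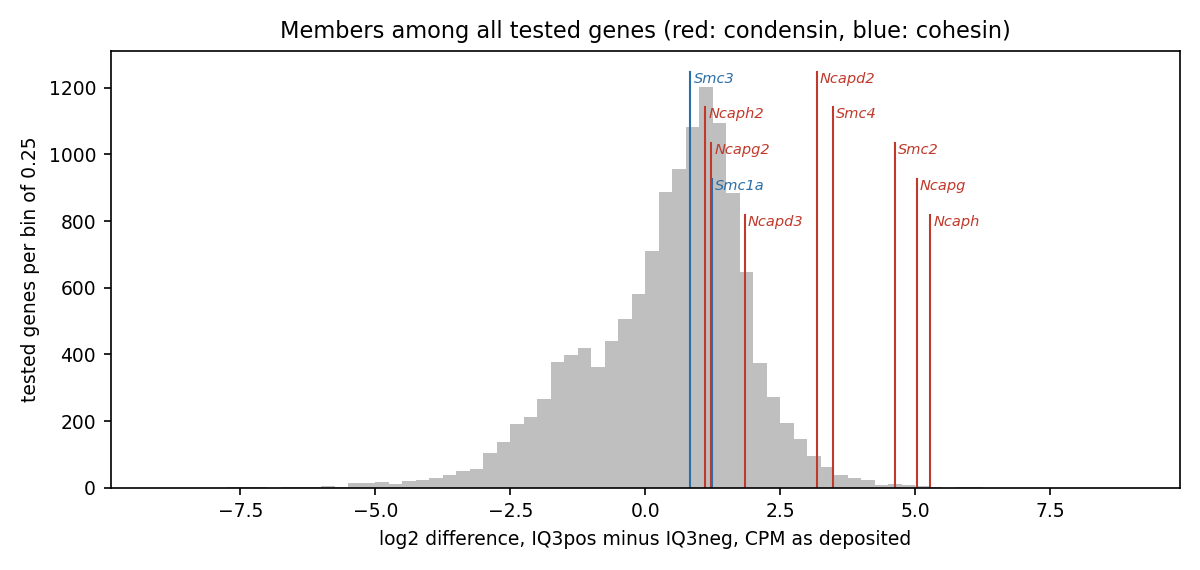
Number of tested genes by log2 difference on CPM, in bins of 0.25, with the condensin genes in red and the cohesin genes in blue. Smc3 and Smc1a fall in the bulk of genes, and 5 condensin genes fall in the right tail.

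Of the 8 condensin genes, 5 had a log2 difference of at least 3 on CPM, a size chosen after the values were seen, which 2.2% of tested genes reached. These were Smc2, Smc4 and the 3 genes of condensin I. With TMM scaling 3 did (Smc2, Ncapg and Ncaph), beside 0.914% of tested genes. No cohesin or condensin II gene reached it on either scale. Among all tested genes the cohesin genes Smc3 and Smc1a stood at percentiles 55.3 and 69.4 of the log2 difference, and the condensin II genes Ncaph2, Ncapg2 and Ncapd3 at 64.9, 68.9 and 87.3. The 5 other condensin genes stood at percentile 98.3 or above.

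Condensin and cohesin were compared within each library as a ratio, which no scaling of libraries can change. CPM were divided by exonic length (GENCODE vM21) and summed over the SMC pair of each complex. The Smc2 and Smc4 sum was 67.1 and 76.2 CPM per kb in IQ3pos_1909A and IQ3pos_1910A, against 3.89 and 5.54 CPM per kb in IQ3neg_1909B and IQ3neg_1910B. The Smc1a and Smc3 sum was 32.7 and 49.4 CPM per kb in the IQ3pos libraries, against 15.1 and 21.2 CPM per kb in the IQ3neg libraries. The condensin pair therefore exceeded the cohesin pair in IQ3pos, with ratios of 2.05 and 1.54, and lay below it in IQ3neg, with ratios of 0.258 and 0.262. The ratio was 7.96-fold higher in IQ3pos_1909A than in IQ3neg_1909B and 5.89-fold higher in IQ3pos_1910A than in IQ3neg_1910B. The difference of the median log2 differences, condensin minus cohesin, was 2.29 over all libraries, 3.10 for IQ3pos_1909A over IQ3neg_1909B and 2.34 for IQ3pos_1910A over IQ3neg_1910B. It was 1.60 without IQ3neg_1909B and 2.90 without IQ3neg_1910B. With 2 libraries against 2, an exact two-sided permutation test cannot give a p below 0.333, and no p is given for this comparison.

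**Figure D4:**
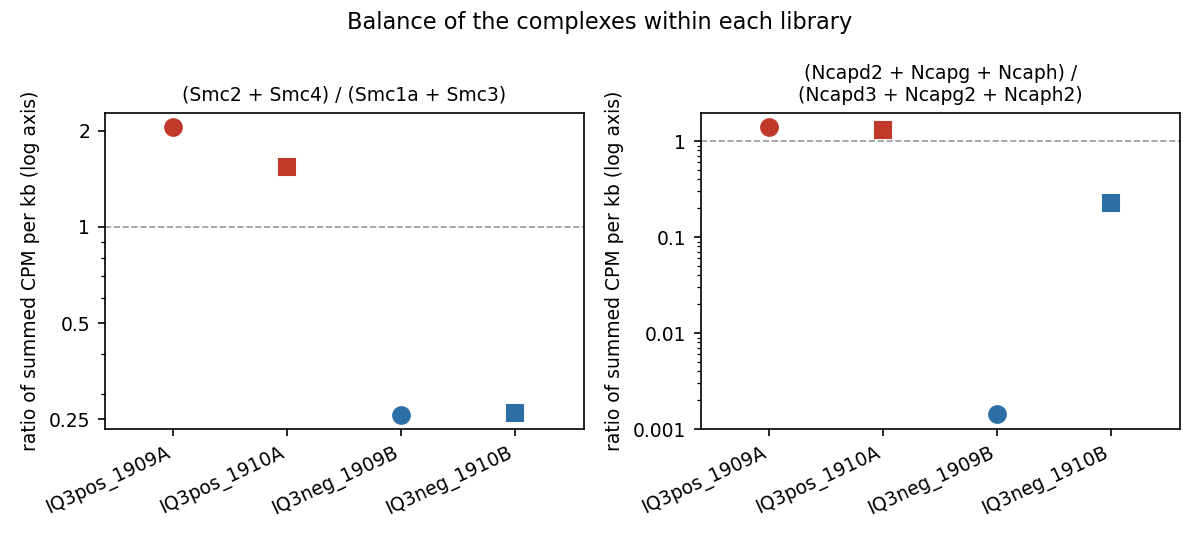
Ratios of summed CPM per kb within each library, on log axes, with IQ3pos libraries in red and IQ3neg libraries in blue: condensin SMC pair over cohesin SMC pair (left) and condensin I over condensin II subunits (right). Both ratios are above 1 in both IQ3pos libraries and below 1 in both IQ3neg libraries. In IQ3pos the right ratio is above 1 through Ncaph, the largest part of the condensin I sum.

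Condensin I and condensin II were compared in the same way. The subunits of condensin I summed to 29.7 and 50.5 CPM per kb in IQ3pos_1909A and IQ3pos_1910A, against 0.0108 and 3.25 CPM per kb in IQ3neg_1909B and IQ3neg_1910B. Those of condensin II summed to 21.3 and 38.7 CPM per kb in the IQ3pos libraries, against 7.50 and 14.2 CPM per kb in the IQ3neg libraries. The ratio of condensin I to condensin II was 1.39 and 1.30 in IQ3pos, and 0.00145 and 0.228 in IQ3neg. The 2 IQ3pos libraries gave similar ratios and the IQ3neg libraries did not. The value of IQ3neg_1909B rests on the few reads named above. Within the SMC pairs, Smc2 over Smc4 was 0.614 and 0.842 in IQ3pos and 0.410 and 0.204 in IQ3neg, and Smc1a over Smc3 was 0.380 and 2.33 in IQ3pos and 0.751 and 0.680 in IQ3neg. In IQ3neg the order of levels per kb put Smc3, Smc1a and Ncaph2 above the other members in both libraries. In IQ3pos Smc4 was the most abundant member per kb in both libraries, at 41.6 and 41.4 CPM per kb.

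The genes lie on 10 chromosomes, so none neighbours another. On GRCm38, Smc2 lies at 52439243 to 52488260 of chromosome 4, Smc4 at 69004738 to 69034623 of chromosome 3, Ncapg at 45669919 to 45700546 of chromosome 5 and Ncaph at 127103809 to 127133954 of chromosome 2. Ncapd2 lies at 125168007 to 125191701 of chromosome 6, Ncapd3 at 27030175 to 27095315 of chromosome 9, Ncapg2 at 116405402 to 116463731 of chromosome 12 and Ncaph2 at 89355719 to 89372826 of chromosome 15. Smc1a lies at 152016428 to 152062694 of chromosome X and Smc3 at 53600398 to 53645833 of chromosome 19. Exons of other genes overlap those of 3 members, and without a stated strand setting it is not known how reads from shared bases were assigned. The oppositely oriented Lcorl covers 13.4% of the exonic bases of Ncapg, and Lcorl itself stood at 28.0 and 96.5 CPM in the IQ3pos libraries and 21.8 and 41.2 CPM in the IQ3neg libraries. In IQ3neg_1909B, Ncapg had 0 reads beside the 21.8 CPM of Lcorl. Sco2 and Tymp cover 19.7% and 12.7% of those of Ncaph2, where Sco2 was listed at 0 in every library and Tymp at 0.362 CPM or less. Ncapd2 shares under 4% with each of 2 small noncoding genes listed at 0.

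The partners of these complexes were followed in 7 lists with 40 genes, of which 36 were tested, and limma called none at the adjusted threshold of 0.05. The lists were drawn up with earlier results of these data known. Of 9 partners and kinases of condensin, 7 were higher at an unadjusted p under 0.05 on CPM and 5 with TMM scaling (18.2% and 7.63% of tested genes), with a median log2 difference of 3.65 and 2.89. Top2a, the topoisomerase that untangles chromosomes alongside condensin, stood at 357 and 693 CPM in IQ3pos_1909A and IQ3pos_1910A, against 28.5 and 52.4 CPM in IQ3neg_1909B and IQ3neg_1910B. Its log2 difference was 3.65 (SE 0.48, limma adjusted p = 0.0605), or 2.89 with TMM scaling. Cdk1, the kinase that starts mitosis and phosphorylates condensin, stood at 164 and 487 CPM, against 7.09 and 28.8 CPM, a difference of 4.19 (SE 0.81), or 3.46 with TMM scaling. In both genes each IQ3pos library exceeded each IQ3neg library on CPM and with TMM scaling, as in 40.9% and 24.7% of tested genes. Akap8, a nuclear scaffold that binds condensin, chosen after its value was seen, had the lowest difference of the list, at 0.24 on CPM and −0.51 with TMM scaling.

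The other ring subunits Rad21, Stag1 and Stag2 had log2 differences of 1.93, 1.20 and 0.62 on CPM, and of 1.18, 0.47 and −0.13 with TMM scaling. Rad21, the kleisin of cohesin, stood at 94.0 and 172 CPM in IQ3pos_1909A and IQ3pos_1910A, against 25.9 and 41.0 CPM in IQ3neg_1909B and IQ3neg_1910B. On CPM each IQ3pos library exceeded each IQ3neg library in 4 of the 5 cohesin ring subunits (40.9% of tested genes). With TMM scaling this held for Rad21 alone, 1 of 5 (24.7% of tested genes). Stag2 stood at 114.8 and 32.9 CPM in the IQ3pos libraries, against 34.9 and 45.5 CPM in the IQ3neg libraries, and its direction was opposite between the library numbers. The 5 genes of loading and release had a median of 0.77 on CPM and 0.01 with TMM scaling, and 1 was higher at an unadjusted p under 0.05 on CPM and 0 with TMM scaling, near the 18.2% and 7.63% of tested genes. Wapl, which opens the ring to release cohesin, stood at 206 and 195 CPM in IQ3pos and 112 and 122.5 CPM in IQ3neg, a difference of 0.77, or 0.01 with TMM scaling. Pds5a, its partner on the ring, stood at 174.5 and 57.4 CPM in IQ3pos and 35.6 and 41.6 CPM in IQ3neg, a difference of 1.36, or 0.61 with TMM scaling.

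The 8 cohesin regulators of S phase and mitosis had a median log2 difference of 2.58 on CPM and 1.96 with TMM scaling. At an unadjusted p under 0.05, 5 were higher on CPM and 4 with TMM scaling (18.2% and 7.63% of tested genes). In 7 the fractions did not overlap on either scale (40.9% and 24.7% of tested genes). Esco2, the acetyltransferase that locks cohesin onto replicating DNA, stood at 89.3 and 179 CPM in IQ3pos_1909A and IQ3pos_1910A, against 0.0348 and 16.8 CPM in IQ3neg_1909B and IQ3neg_1910B. Its log2 difference was 4.89 (SE 1.36, limma adjusted p = 0.122), or 4.40 with TMM scaling, and it had 4 reads in IQ3neg_1909B, where the condensin I genes were also at most at 4. Its relative Esco1, which acts outside S phase too, had a difference of 0.75 on CPM and −0.01 with TMM scaling; it is named here after its value was seen. Pttg1, the securin that restrains the cohesin-cutting protease, stood at 118 and 143 CPM in IQ3pos and 28.0 and 42.3 CPM in IQ3neg, a difference of 1.89 (SE 0.40), or 1.13 with TMM scaling. Of 4 meiotic cohesin genes only Rec8, a germline kleisin, was tested, and Rad21l was listed at 0 throughout. Rec8 was lower in IQ3pos, at 0.110 and 0.0287 CPM, against 1.83 and 13.7 CPM in IQ3neg, a difference of −2.59 on CPM and −2.90 with TMM scaling. The untested Smc1b and Stag3, given after their values were seen, had the opposite direction. Smc1b stood at 3.10 and 0.0179 CPM in IQ3pos and 0.0174 and 0 CPM in IQ3neg, and Stag3 at 3.91 and 0.0322 CPM in IQ3pos and 0 and 0.0048 CPM in IQ3neg.

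**Figure D5:**
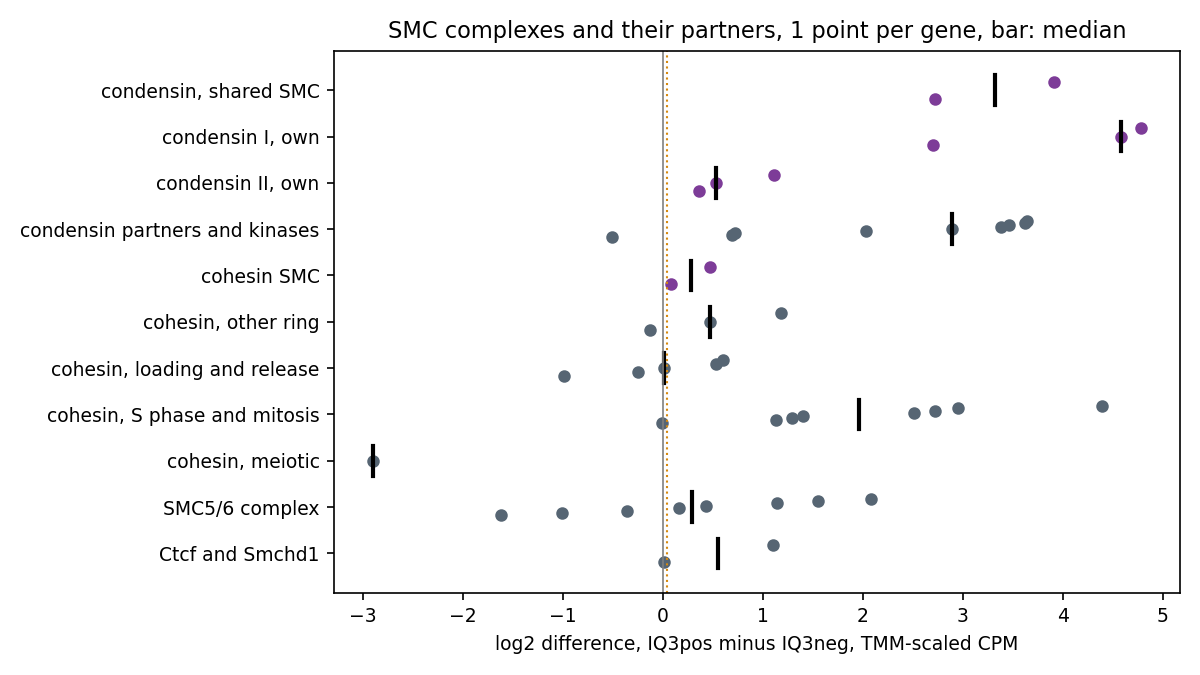
Log2 difference of each tested gene, IQ3pos minus IQ3neg, on TMM-scaled CPM, by list, with the 10 members in purple, the other genes in grey, the list median as a black bar and the median of all tested genes as a dotted line. The shared and condensin I subunits, the condensin partners and the cohesin regulators of S phase and mitosis have medians from 1.96 to 4.59, and the cohesin SMC pair, the other ring subunits and the loading factors have medians of 0.28, 0.47 and 0.01, lower than their 1.03, 1.20 and 0.77 on CPM. The condensin II subunits have a median of 0.53, lower than their 1.22 on CPM.

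The SMC5/6 complex, another SMC ring that acts in DNA repair, had a median of 1.02 on CPM and 0.29 with TMM scaling over 8 tested genes. At an unadjusted p under 0.05, 3 were higher on CPM and 1 with TMM scaling (18.2% and 7.63% of tested genes). Smc6 stood at 159 and 113 CPM in IQ3pos_1909A and IQ3pos_1910A, against 33.6 and 20.7 CPM in IQ3neg_1909B and IQ3neg_1910B, with a difference of 2.30 on the log2 scale (SE 0.44, adjusted p = 0.0698 in limma), or 1.55 with TMM scaling. Its partner Smc5 differed by −0.31, or −1.01 with TMM scaling, a gene picked out after its value was seen. Nsmce2, a SUMO ligase of the complex, differed by 1.89 and Nsmce4a by 2.58, or by 1.14 and 2.08 with TMM scaling. Ctcf, which halts cohesin at loop anchors, stood at 29.0 and 29.5 CPM in IQ3pos and 21.4 and 2.31 CPM in IQ3neg. Smchd1, an SMC-like protein of the inactive X chromosome, stood at 42.8 and 52.5 CPM in IQ3pos and 37.8 and 20.2 CPM in IQ3neg. Their log2 differences of 1.81 and 0.75 on CPM became 1.10 and 0.01 with TMM scaling, and neither had an unadjusted p under 0.05.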

How the data were processed

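The authors deposited 1 table of CPM, counts scaled to 1000000 reads in genes, for the 4 libraries. The submitters' processing notes name STAR 2.7.1a, Subread 2.0.0 with featureCounts, edgeR and the build GRCm38/mm10, without role or order. No source used here gives the annotation, the strand setting or the handling of duplicate and multi-mapped reads. Within 0.05 reads, 100% of the values above 0 were whole multiples of 1 step per library, which gave back whole reads. SMART-Seq2 reads carry no molecular identifiers.

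The test was limma-trend (version 3.58.1 in R 4.3.3) on log2(CPM + 1), IQ3pos minus IQ3neg, two-sided, over the 13019 genes averaging 1 CPM or more, which include all 10 described, with Benjamini-Hochberg adjustment over all of them. This scale understates the change of low genes. There were 2 residual and 3.61 prior degrees of freedom, and p-values measure library-to-library spread only, which may be technical in part. Other pseudocounts, filters and scalings, the omission of each library, a block for the library number, edgeR 4.0.16 and DESeq2 1.42.0 on the recovered reads were tried as alternatives. Of each partner list, the 2 genes of highest mean CPM and the 1 of largest difference among those averaging 1 CPM or more are named by rule; Stag1, Smc1b, Stag3, Akap8, Esco1 and Smc5 were added after their values were seen. The genes, lists and tests were chosen with earlier results of these data known. Exonic lengths and coordinates come from GENCODE vM21 on GRCm38, and promoters from RefSeq GRCm38.p6.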

Additional observations from a re-analysis of the deposited data

Results flagged for a closer look

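Ncapg2 went in opposite directions between the library pairs of the same number: its log2 difference was −1.36 for IQ3pos_1909A minus IQ3neg_1909B and 3.79 for IQ3pos_1910A minus IQ3neg_1910B. Stag2 did so the other way round, at 1.69 for IQ3pos_1909A minus IQ3neg_1909B and −0.46 for IQ3pos_1910A minus IQ3neg_1910B. Opposite directions were also seen in 5 further partner genes, whose values are for IQ3pos_1909A minus IQ3neg_1909B and then for IQ3pos_1910A minus IQ3neg_1910B. They were −0.40 and 3.09 for Mcph1, 1.80 and −1.13 for Slf1, −1.23 and 0.57 for Pds5b, −0.21 and 1.70 for Esco1, and 0.22 and −0.84 for Smc5. Each value compares 1 library with 1, and whether the pairs differ was not tested. The share of all tested genes with opposite directions is not given here, so these genes cannot be called unusual.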

How the results depend on the processing

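In 21 alternatives the difference of medians, condensin minus cohesin, stayed above 0, from 1.60 to 2.93 (1.60 to 2.90 with a library left out), and was 1.62 and 2.93 with TMM scaling without IQ3neg_1909B and without IQ3neg_1910B. Of these alternatives, 7 were chosen after seeing the data: TMM scaling joined with a left-out library or the block, edgeR with filterByExpr and unfiltered DESeq2. The number of genes called higher and lower in IQ3pos, 0 and 0 as reported, was 40 and 22 with a pseudocount of 2 CPM, 689 and 93 with a filter of 5 CPM, 6 and 24 with TMM scaling, 16 and 33 with DESeq2 scaling, 2 and 9 without the 20 most abundant genes, 40 and 80 with edgeR (11 and 38 with filterByExpr) and 710 and 1081 with DESeq2 (1064 and 2063 with no filter).

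The condensin median of 3.32 was 2.71 with TMM or DESeq2 scaling, 2.73 without the 20 most abundant genes, 2.36 with edgeR, 2.51 with DESeq2, 2.25 with filterByExpr and 2.42 with unfiltered DESeq2. The cohesin median of 1.03 was 0.28, 0.28, 0.058, 0.44, 0.43, 0.39 and 0.42 in the same order. With a library left out the condensin median ran from 2.40 to 4.17 and the cohesin median from 0.72 to 1.35. With TMM scaling as well, they were 2.73 and 0.54 without IQ3pos_1909A, 1.81 and 0.20 without IQ3neg_1909B, 2.70 and 0.016 without IQ3pos_1910A, and 3.29 and 0.36 without IQ3neg_1910B.

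Ncapg2 differed by 3.41 without IQ3pos_1909A. Signs turned for Smc3, to −0.14 without the 20 most abundant genes and, with TMM scaling, to −0.30 without IQ3pos_1909A and −0.036 without IQ3neg_1909B. Without IQ3pos_1910A, Ncapg2 turned to −0.98, and with TMM scaling to −1.57, Ncaph2 to −0.12 and Smc1a to −0.43. The cause was not tested.

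The fractions share the numbers in their library names, which the labels do not tie to a shared pool, and same-numbered libraries deviated together with a correlation of 0.148 (0.140 with TMM scaling). With the number as a replicate block, 1216 genes were called higher and 125 lower, and 242 and 155 with TMM scaling, where the medians were 2.71 and 0.28. Smc2, Smc4, Ncapg and Ncaph passed with the block (adjusted p of 0.00539, 0.00588, 0.0188 and 0.0108 in limma) and with the filter of 5 CPM (0.0214, 0.0214, 0.0360 and 0.0385), and with the block on TMM-scaled CPM (0.00746, 0.00963, 0.0447 and 0.0214). Smc2 and Smc4 passed with a pseudocount of 2 CPM (0.0464 each), and Smc2 with DESeq2 scaling (0.0481). The unadjusted count of condensin genes, 6 as reported, was 3 to 6 with a library left out, also with TMM scaling (3 without IQ3pos_1910A), and 2 with unfiltered DESeq2. The unadjusted count of cohesin genes, 0 as reported, was 1 with the replicate block and 0 in the other alternatives that kept all libraries. These counts are not given with a library left out, where a group holds 1 library. Without IQ3pos_1909A the log2 difference of Smc1a was 2.19 on CPM and 1.38 with TMM scaling, against 1.23 and 0.47 with all libraries.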
